A study of Homo sapiens with 19 samples.

Results

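The nuclear genes for the subunits of the 5 oxidative phosphorylation complexes were followed in the human neuroblastoma line SHEP TET21N, whose MYCN transgene is switched off by doxycycline. Genes were taken by symbol (NDUFA, NDUFB, NDUFC, NDUFS and NDUFV for complex I, SDHA to SDHD for complex II, UQCR for complex III, COX4 to COX8 for complex IV, ATP5 for complex V) where the raw count averaged at least 10 over the 19 libraries. That left 78 of the 23367 genes in the table, with 37 in complex I, 4 in complex II, 9 in complex III, 12 in complex IV and 16 in complex V. The rule used only symbols and mean counts, not the comparisons, but it was chosen with earlier results of these data known. Of 91 symbols that matched, 2 were pseudogenes and 11 averaged under 10 counts. ATP5L2 lay just outside with a mean of 9.53 counts, and the lowest member was ATP5S with 87.95. All 78 members passed the filter on low counts that left 14793 genes for testing.

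Each complex has a core that carries electrons or protons, and all but complex II also have accessory subunits. Complexes I and II feed electrons from NADH and succinate into ubiquinone, complex III passes them to cytochrome c, complex IV hands them to oxygen, and complex V, the ATP synthase, uses the resulting proton gradient to make ATP. Complex II is built from nuclear genes alone, whereas the other complexes also hold subunits made from mitochondrial DNA. MYC-family transcription factors are known to act on genes of mitochondrial biogenesis.

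MYCN-high cells grew without doxycycline and MYCN-low cells with it, so MYCN state and doxycycline cannot be told apart. In each state there were untreated cells (0 h), cells taken after 72 h in doxorubicin at 0.1 µg/ml, and cells taken 3, 8 and 14 days after that 72 h treatment, when the drug had been washed out. Doxorubicin is an anthracycline that poisons topoisomerase II. Every group had 2 libraries, lettered B and C in the labels, except MYCN-low cells on day 14, which had library B alone. The only untreated cells are the 0 h group of each state, so drug, recovery and time in culture cannot be told apart. All libraries come from 1 line, and no source used here says whether B and C were separate cultures. The p-values therefore measure the spread between these libraries, which may be technical. In bulk RNA, fewer cells of a type and less RNA per cell cannot be told apart.

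Library totals ran from 16530112 to 27638012 gene counts, and the 78 members took 0.583% to 1.119% of them. MYCN was higher in MYCN-high cells by 4.75 to 5.64 on the log2 scale over the 5 times, and MYC was lower by the same fit at every time (log2 change of -5.07 at 0 h). Of the line's markers, the 4 noradrenergic genes summed to at most 0.0982 CPM in any library, with PHOX2A at 0 in all, while 5 mesenchymal genes summed to 1593 to 2516 CPM in MYCN-high and 4218 to 14017 CPM in MYCN-low libraries. CPM is the usual library-normalised count, here with library totals scaled by the trimmed mean of M-values (TMM). The 3 markers of leukocytes, epithelium and endothelium summed to 0.453 to 2.14 CPM in MYCN-high and 0.824 to 3.11 CPM in MYCN-low libraries, and the leukocyte gene PTPRC rose in MYCN-low cells at every time after drug. Their part in the results below was not tested. Spike-in counts ranged from 2730 to 110681 per library, and scaling to them in place of the gene totals left no member called in any comparison. All values below are thus relative to the other genes of the library.

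The summed CPM of the 78 genes separated the states completely. It lay between 8837.3 and 11560.3 in the 10 MYCN-high libraries and between 5613.4 and 7461.5 in the 9 MYCN-low libraries. The ratio of the group means was 1.33 at 0 h, 1.54 at 72 h, 1.53 on day 3, 1.68 on day 8 and 1.89 on day 14. Complex V went from a ratio of 1.33 at 0 h to 2.12 on day 14, complex II from 1.34 to 2.25, complex III from 1.46 to 2.00, complex I from 1.27 to 1.77 and complex IV from 1.31 to 1.59. The day 14 ratios rest on 1 MYCN-low library, B. At each earlier time the MYCN-low sum over all members was lower in B than in C. It was 6068.3 against 7461.5 CPM at 0 h and 6573.8 against 7086.8 at 72 h. On day 3 it was 6278.8 against 7181.3 and on day 8 5613.4 against 6481.7, while B had 5704.9 on day 14. The part of the missing library C in the day 14 ratios was not tested. These sums were not tested, since a sum is set by its most abundant members.

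**Figure D1:**
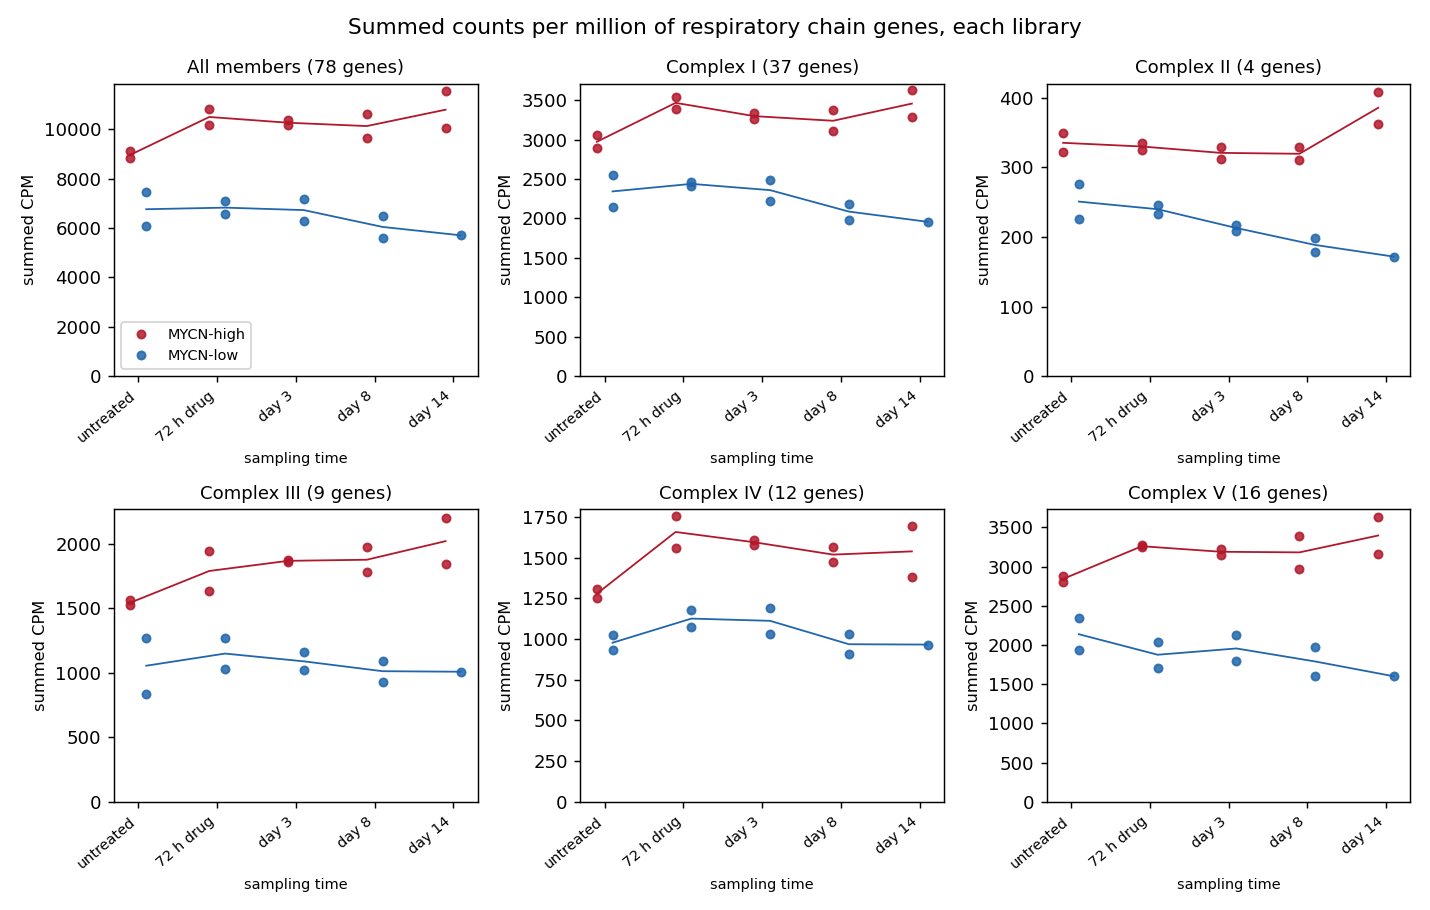
Summed CPM of the members of each complex in every library (1 point per library, lines through the group means) by time, for MYCN-high and MYCN-low cells. The sums over all 78 members lie between 8837.3 and 11560.3 CPM in MYCN-high and between 5613.4 and 7461.5 CPM in MYCN-low libraries.

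Gene by gene, members were compared between the states at each time with edgeR's quasi-likelihood test, called at a Benjamini-Hochberg adjusted p under 0.05 over all 14793 genes. In untreated cells 21 of 78 members (26.9%) were higher in MYCN-high cells and 4 (5.13%) lower, where 16.5% of all tested genes were higher and 18.6% lower. After 72 h of doxorubicin 42 members (53.8%) were higher and none lower, against 15.5% and 14.4% of all genes. On day 3, 36 members (46.2%) were higher and none lower, against 17.0% and 14.8%. On day 8, 52 (66.7%) were higher and none lower, against 23.4% and 20.5%. On day 14, 49 (62.8%) were higher and none lower, against 21.4% and 20.5%. By complex (I to V), 7 of 37, 2 of 4, 3 of 9, 4 of 12 and 5 of 16 members were higher at 0 h, and 18, 3, 7, 10 and 14 on day 8. The median log2 difference of the members was 0.29, 0.63, 0.51, 0.67 and 0.88 in that order of times, while the median of all genes stayed between -0.04 and 0.04.

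When 1 library was left out, shares of all genes in the same fits are given here for the untreated comparison alone. The counts after drug thus do not show how far the members' share stayed above that of all genes. The untreated comparison depended on single libraries. Without MYCN-high library B it called 8 members higher and 2 lower, without MYCN-high library C 3 and 1, without MYCN-low library B 5 and 1, and without MYCN-low library C 30 and 12. In the first 3 of these fits the shares of members higher (10.3%, 3.85% and 6.41%) were below those of all genes (11.0%, 9.33% and 9.59%), and in the last the share was above (38.5% against 22.2%). The counts higher also fell to 24 at 72 h without MYCN-low B. On day 3 they fell to 19 without MYCN-high B and 21 without MYCN-low B, and on day 8 to 32 without MYCN-high C and 25 without MYCN-low B. The only lower call after drug in these leave-one-out fits was 1 member at 72 h without MYCN-high C. In all, 13 members (16.7%) were called higher at all 5 times, against 5.87% of all tested genes, and 29 (37.2%) at all 4 times after drug, against 8.82%. The 13 included NDUFB9, NDUFB10, NDUFS1 and NDUFV2 of complex I, SDHB of complex II, UQCRC2, UQCRFS1 and UQCRH of complex III, and ATP5A1, ATP5B, ATP5F1 and ATP5O of complex V. No complex IV member was called at all 5 times. Another 15 members (19.2%, against 65.52% of all genes) were higher at no time, of which 11 carry complex I symbols. NDUFA4, among them, is placed in complex I by its symbol, although its product is known as a subunit of complex IV.

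**Figure D2:**
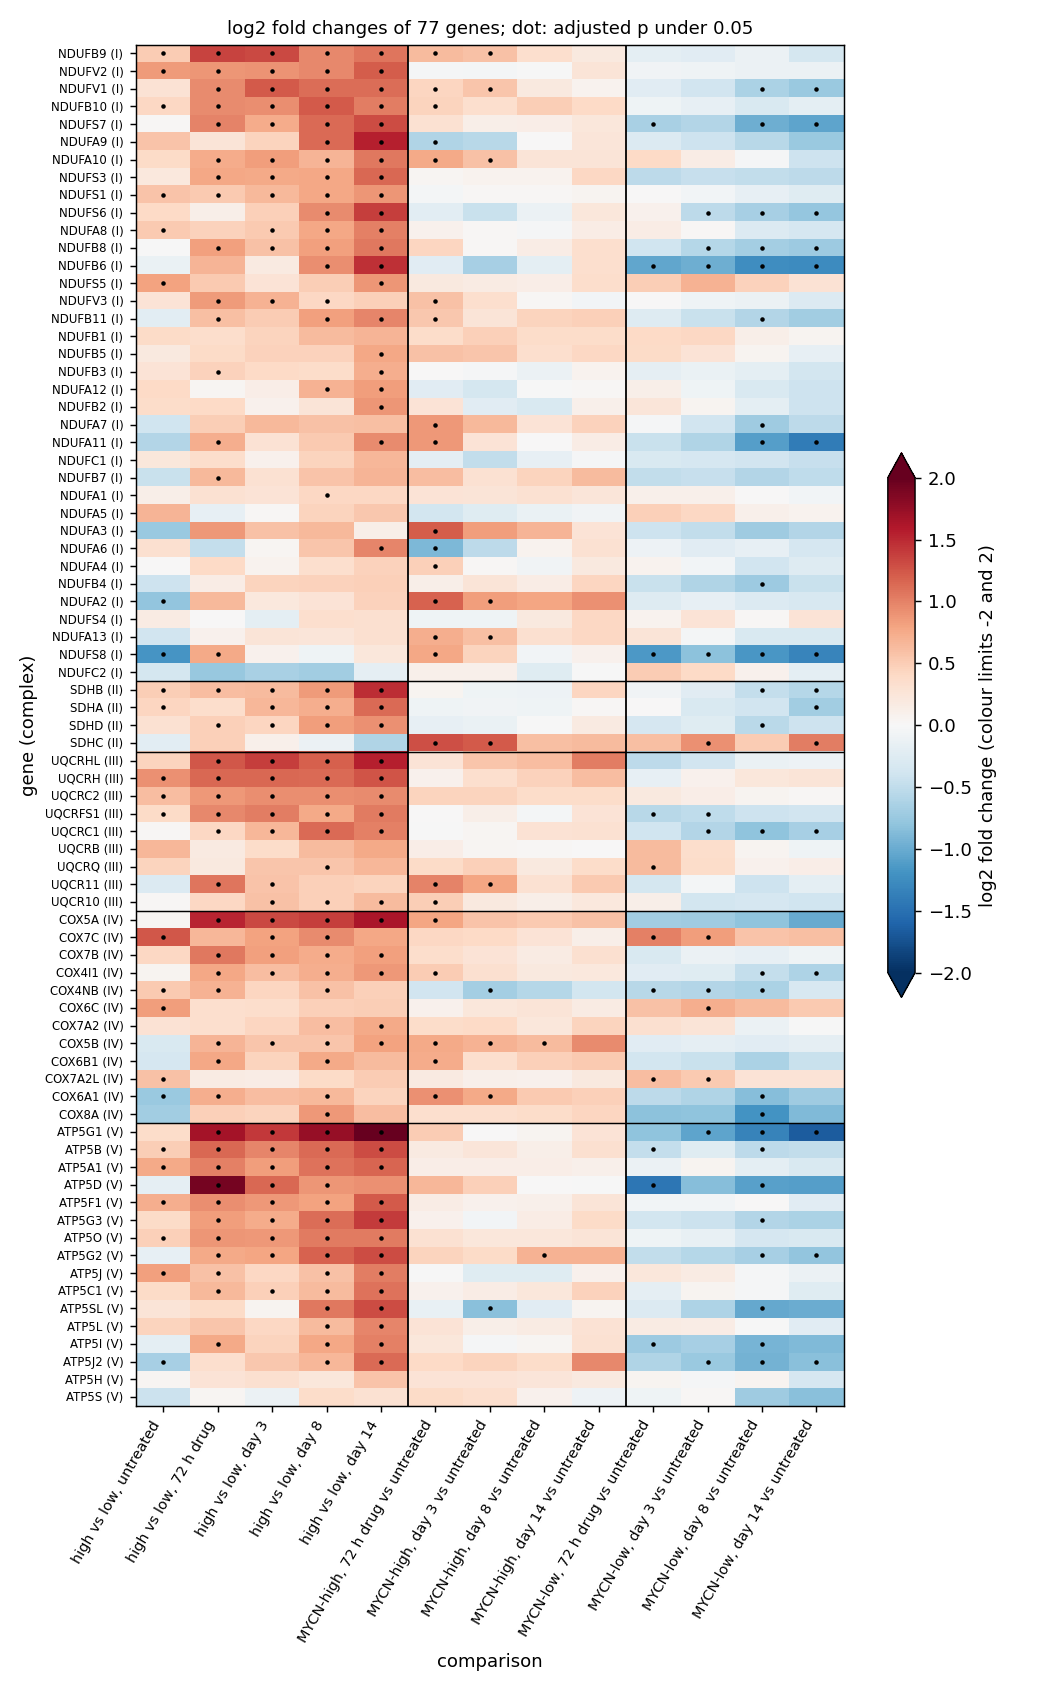
Log2 fold change of 77 of the 78 members (rows, by complex) between MYCN-high and MYCN-low cells at each time and between each time and untreated cells in either state (columns), with colour for the change and a dot for an adjusted p under 0.05. Between the states, over all 78 members, 42, 36, 52 and 49 members were called higher after drug and none lower, while at 0 h 21 were higher and 4 lower.

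Complex I takes electrons from NADH through a flavin and a chain of iron-sulfur clusters. NDUFV2, an iron-sulfur subunit beside the flavin, stood in MYCN-high cells at 163 and 173 CPM untreated, 162 and 169 at 72 h, 169 and 158 on day 3, 158 and 175 on day 8, and 196 and 206 on day 14. In MYCN-low cells it stood at 84.3 and 102, 81.6 and 96.8, 86.7 and 89.0, 80.6 and 91.0, and 86.5 CPM. Every MYCN-high library was above every MYCN-low library, and no change with time was called in either state. On day 14 the MYCN-high libraries were above those of the earlier times (log2 change of 0.25, adjusted p = 0.658). The log2 difference was 0.85 ± 0.15 (SE) untreated (adjusted p = 4.81e-04) and 1.21 ± 0.19 on day 14 (adjusted p = 1.35e-04), and it was called at all 5 times without any 1 library. NDUFV1, the flavin-binding subunit, had 115 and 127 CPM against 84.5 and 113 in untreated cells, where the states lay close together (log2 0.29 ± 0.16, adjusted p = 0.17). At 72 h it had 167 and 159 CPM in MYCN-high and 94.5 and 74.0 in MYCN-low cells, on day 3 183 and 172 against 72.6 and 78.8, on day 8 140 and 136 against 64.2 and 63.7, and on day 14 124 and 131 against 58.8. The groups overlapped at no time, and of the 5 times the difference was largest on day 3 (log2 1.23 ± 0.16, adjusted p = 4.79e-05).

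NDUFB9, an accessory subunit of the membrane arm, had 116 and 122 CPM in untreated MYCN-high cells and 87.2 and 79.9 in untreated MYCN-low cells. With drug it stood at 172 and 201 CPM against 72.6 and 73.9 at 72 h, and at 174 and 183 against 67.1 and 75.2 on day 3. It returned part of the way in MYCN-high cells, to 145 and 156 CPM against 71.4 and 82.7 on day 8 and 130 and 144 against 65.5 on day 14. Its log2 difference of 1.35 ± 0.14 at 72 h had the smallest p of the members (adjusted p = 1.15e-05). The untreated call (0.51 ± 0.14, adjusted p = 0.011) was lost without MYCN-high library C (adjusted p = 0.0909). NDUFS8, a core iron-sulfur subunit, ran the other way in untreated cells, with 20.7 and 22.5 CPM in MYCN-high and 64.3 and 34.0 in MYCN-low libraries. It was the lowest member there (log2 -1.18 ± 0.25, adjusted p = 0.00198) and kept that call without each library in turn. At 72 h it had crossed over, at 34.1 and 40.1 CPM against 25.4 and 18.7 (log2 0.75 ± 0.25, adjusted p = 0.031), a call lost without MYCN-high C or MYCN-low C (adjusted p up to 0.222). From day 3 the states lay close together and no call was made, at 29.7 and 29.1 against 27.8 and 27.7, then 19.3 and 22.1 against 22.8 and 21.0, and 20.5 and 25.6 against 19.7 CPM on day 14.

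Complex II oxidises succinate and sits in the citric acid cycle as well. SDHB, its iron-sulfur subunit, had 102 and 122 CPM in untreated MYCN-high cells, 114 and 117 at 72 h, 103 and 108 on day 3, 100.5 and 108 on day 8, and 137 and 164 on day 14. In MYCN-low cells it had 72.0 and 87.9, 79.7 and 72.3, 67.4 and 68.8, 55.5 and 60.1, and 53.9 CPM, with no overlap at any time. The log2 difference was 0.49 ± 0.15 untreated (adjusted p = 0.0205), which was lost without MYCN-high C or MYCN-low B (adjusted p up to 0.208), and 1.48 ± 0.20 on day 14 (adjusted p = 4.48e-05). SDHA, the flavoprotein, was higher untreated (0.43 ± 0.15, adjusted p = 0.0355), a call lost without MYCN-high B or C or MYCN-low B (up to 0.24). It missed the threshold at 72 h (0.35, adjusted p = 0.0866) and was higher by 0.66 to 1.14 from day 3 on, and SDHD, a membrane anchor, by 0.43 to 0.91 from 72 h on. The SDHA call on day 3 was lost without MYCN-high B of that day (adjusted p = 0.0504), the SDHD call at 72 h without MYCN-high B or C or MYCN-low B (up to 0.205) and that on day 3 without any 1 library (up to 0.2), and SDHB at 72 h without MYCN-low C (0.0575). SDHC, the other anchor, was the exception, with a log2 difference between -0.60 and 0.48 and no call at any time. Its counts were the second lowest of the members.

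The members of complex III that were higher at all times after drug included catalytic and accessory subunits. UQCRFS1, the Rieske iron-sulfur protein, had 67.2 and 71.8 CPM against 52.8 and 53.3 in untreated cells and 68.1 and 72.2 against 35.0 and 37.3 at 72 h. The later values were 73.7 and 77.6 against 36.7 and 37.7, 60.8 and 74.5 against 37.1 and 42.9, and 81.0 and 86.3 against 40.7. The log2 difference was 0.96 ± 0.15 at 72 h (adjusted p = 1.96e-04) and was held without each library at every time after drug. At 0 h it was 0.39 ± 0.14 (adjusted p = 0.0473), lost without any 1 of the 4 libraries. The core protein UQCRC1 did not differ in untreated cells, with 158 and 151 against 152 and 150 CPM (log2 0.03 ± 0.14, adjusted p = 0.901). On day 8 it had 187 and 191 CPM against 85.4 and 86.5, a log2 difference of 1.14 ± 0.15 (adjusted p = 2.24e-05). UQCRB, a ubiquinone-binding subunit, was called at no time, although its 421 to 454 CPM in untreated MYCN-high cells were above the 180 and 370 of MYCN-low cells.

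Complex IV split by member. COX7C, a small membrane subunit, was higher in untreated MYCN-high cells, at 235 and 236 against 72.2 and 127 CPM (log2 1.24 ± 0.27, adjusted p = 0.00273), and kept that call without each library. At 72 h it had 378 and 255 CPM against 236 and 166 (0.66 ± 0.27, adjusted p = 0.0787). It was called higher again on day 3 (0.81 ± 0.27, adjusted p = 0.0318) and day 8 (0.94 ± 0.27, adjusted p = 0.0106). Both of these calls were lost with the trend on transcript length removed, as described further below (0.58 and 0.59, adjusted p of 0.109 and 0.0846). COX5A, a matrix-side subunit, showed no difference in untreated cells, at 16.8 and 16.5 against 21.3 and 11.1 CPM. From 72 h on its groups separated, at 21.0 and 36.4 against 9.10 and 10.8, then 23.7 and 25.7 against 8.42 and 11.4, 25.1 and 23.1 against 8.89 and 9.65, and 25.6 and 24.1 against 8.00. The log2 difference was 1.53 ± 0.29 at 72 h (adjusted p = 0.00102) and 1.63 ± 0.38 on day 14 (adjusted p = 0.00288), and each of the 4 calls after drug held without each library. COX4I1, the ubiquitous form of subunit 4, was level in untreated cells (199 and 217 against 201 and 198 CPM) and higher by 0.78 ± 0.15 at 72 h (282 and 307 against 171 and 173 CPM, adjusted p = 8.78e-04). COX6A1 was lower in untreated MYCN-high cells, at 53.1 and 52.0 against 117 and 59.1 CPM (log2 -0.74 ± 0.23, adjusted p = 0.023), a call that rested on library B of the MYCN-low cells and was also lost without either MYCN-high library (adjusted p up to 0.536). After drug COX6A1 lay the other way and was called higher at 72 h (0.72 ± 0.23, adjusted p = 0.03) and on day 8 (0.65 ± 0.23, adjusted p = 0.0346). On day 3 it missed the threshold (0.61 ± 0.23, adjusted p = 0.0568). Both calls of COX6A1 after drug were lost with the trend on length removed (0.30 and 0.01). Of the muscle or tissue-restricted forms, COX4I2 averaged 0.05 counts, and COX6A2 and COX7A1 none.

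In complex V the F1 head makes ATP, the c ring turns with the protons, and the stalk holds the head still. ATP5B, the catalytic beta subunit, had 533 and 618 CPM against 353 and 465 in untreated cells and 655 and 649 against 276 and 311 at 72 h. The later values were 699 and 658 against 315 and 375, 593 and 649 against 270 and 295, and 687 and 748 against 292. The groups never overlapped, and the log2 difference was 1.15 ± 0.17 at 72 h (adjusted p = 1.27e-04) and 1.30 ± 0.21 on day 14. ATP5F1, the stalk subunit b, had 254 and 267 CPM against 124 and 192 untreated, 302 and 275 against 135 and 167, 280 and 276 against 150 and 155, 254 and 306 against 142 and 176, and 290 and 336 against 134. Its difference of 0.72 ± 0.20 in untreated cells (adjusted p = 0.0105) was lost without MYCN-high C or MYCN-low B (adjusted p up to 0.111), and on day 8 without MYCN-low B. ATP5J, coupling factor 6 of the stalk, had 74.9 and 77.1 CPM against 31.2 and 54.9 untreated (log2 0.82 ± 0.21, adjusted p = 0.0067, lost without MYCN-low B at 0.0575). On day 3 its 67.9 and 59.7 against 45.9 and 50.3 CPM missed the threshold (0.41 ± 0.21, adjusted p = 0.148).

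ATP5D, the delta subunit of the central stalk, had 16.5 and 16.6 CPM against 25.1 and 12.6 in untreated cells, which overlapped. At 72 h it had 19.9 and 32.6 against 8.42 and 5.46 CPM, a log2 difference of 1.92 ± 0.32 (adjusted p = 3.81e-04) that was called without each library. The difference then narrowed, at 24.5 and 21.8 against 12.0 and 8.85 on day 3, 16.0 and 17.0 against 9.38 and 8.41 on day 8, and 14.9 and 17.9 against 8.76 on day 14 (0.91 ± 0.40, adjusted p = 0.0793). Its day 3 call was lost without MYCN-high B or MYCN-low C of that day (adjusted p up to 0.102), and its day 8 call without any 1 library (up to 0.156). Subunit c is identical after import in the products of ATP5G1, ATP5G2 and ATP5G3. Of the members, ATP5G1 had the largest state difference on day 14. It had 53.4 and 52.1 against 55.8 and 26.9 CPM untreated, 55.5 and 93.7 against 22.9 and 24.4, 55.98 and 50.3 against 18.2 and 21.6, 49.0 and 60.2 against 13.2 and 19.5, and 59.4 and 67.7 against 13.0 on day 14. The state difference went from 0.36 ± 0.30 (adjusted p = 0.378) untreated to 2.28 ± 0.41 on day 14 (adjusted p = 4.50e-04). Per kilobase of transcript, the group means of ATP5G1, ATP5G2 and ATP5G3 were 87.07, 98.53 and 103.8 CPM per kb in untreated MYCN-high cells and 104.9, 159.2 and 134.7 on day 14. In MYCN-low cells they were 68.2, 111.3 and 80.02 untreated and 21.51, 64.38 and 51.17 on day 14, so ATP5G1 was the lowest of the 3 in all of these groups.

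**Figure D3:**
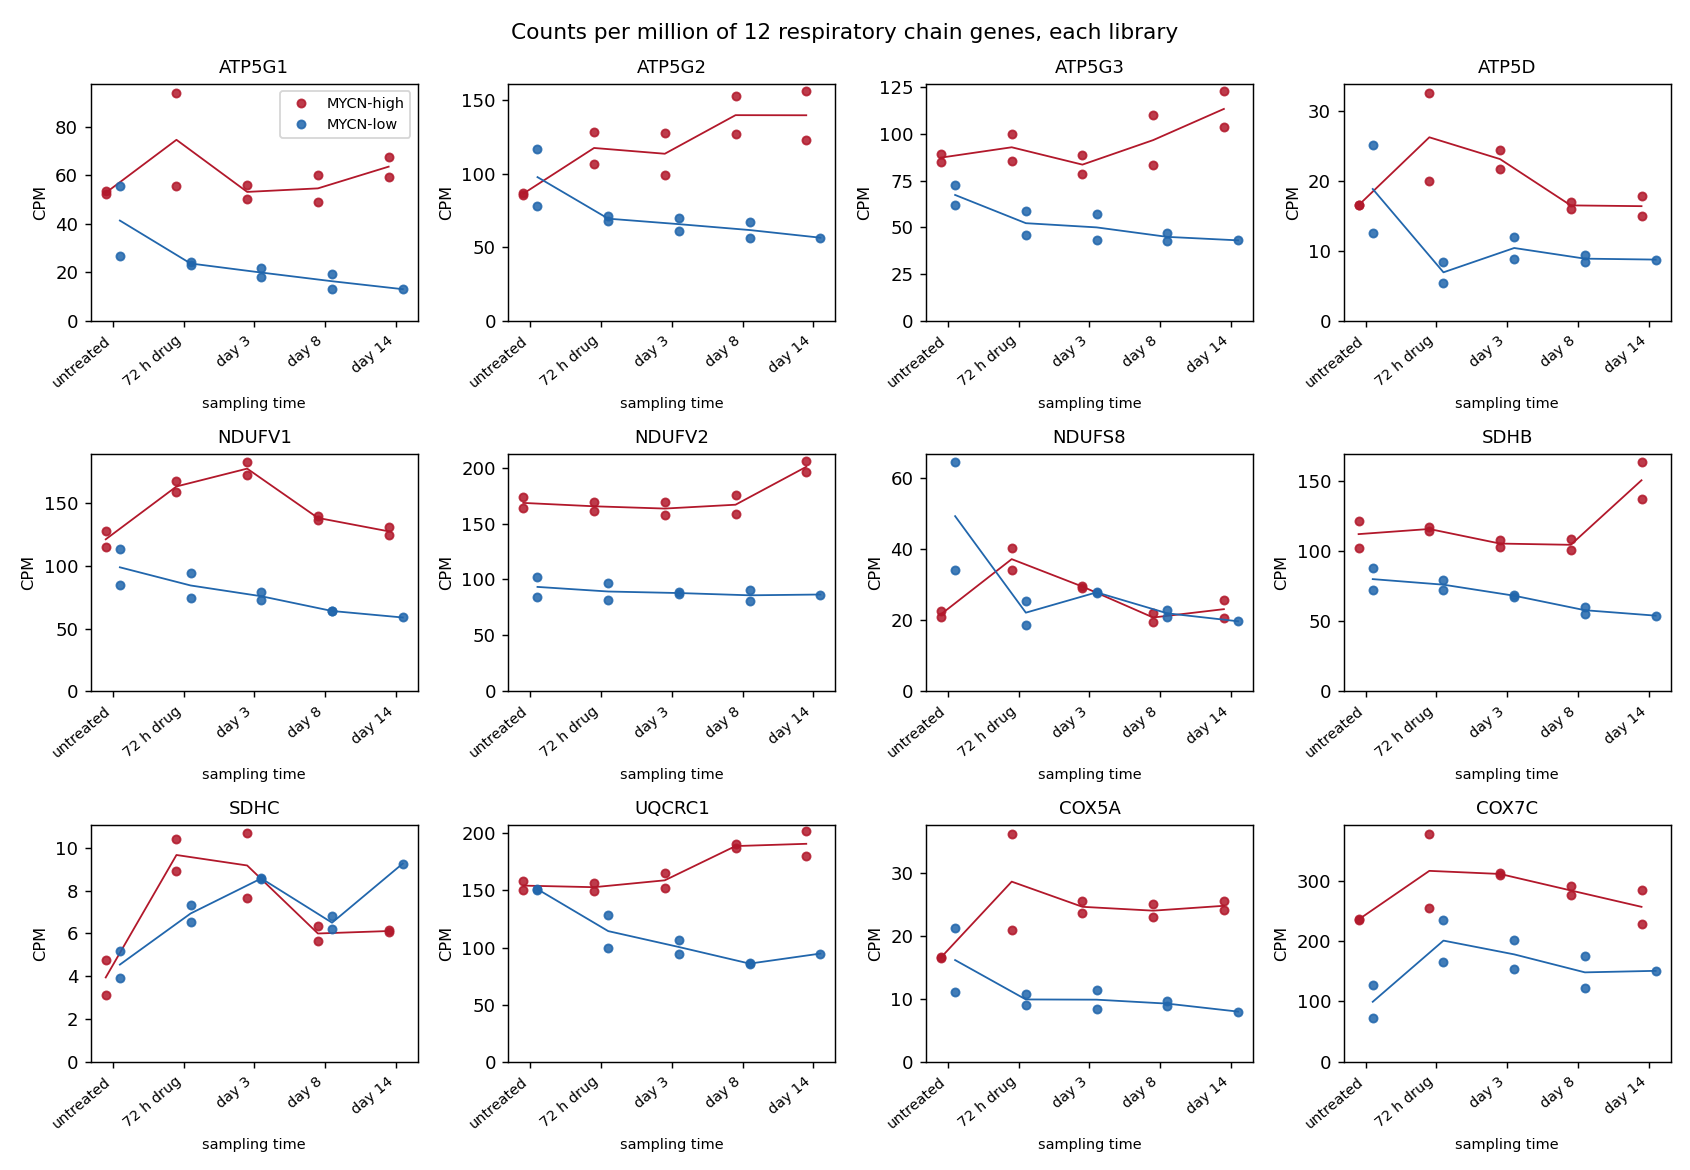
CPM of 12 members in every library (1 point per library, lines through the group means) by time for both states. NDUFV2 is separated at all times, NDUFS8 starts lower in MYCN-high cells (20.7 and 22.5 against 64.3 and 34.0 CPM), and ATP5G1 ends at 59.4 and 67.7 against 13.0 CPM.

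Promoter sequence is shown for 4 genes that stand for different time courses of the state difference: ATP5F1 and SDHB, called at all times, and ATP5G1 and COX4I1, called only after drug. The sequences are from RefSeq (GRCh38.p14, which is not the build of the counts) and run from 250 bases before to 50 after the annotated start. Of the 78 members, 63 matched the table. Capitals mark the E-box CACGTG, the NRF1 core GCATGCGC, the ETS letters CCGGAAG and the YY1 core AAGATGG, read on both strands, so that the YY1 letters also appear as CCATCTT and the ETS letters as CTTCCGG. ATP5F1 lies at chr1:111449214-111449513 on the plus strand, ATP5G1 at chr17:48892537-48892836 (plus), SDHB at chr1:17053983-17054282 (minus) and COX4I1 at chr16:85799445-85799744 (plus).
ATP5F1: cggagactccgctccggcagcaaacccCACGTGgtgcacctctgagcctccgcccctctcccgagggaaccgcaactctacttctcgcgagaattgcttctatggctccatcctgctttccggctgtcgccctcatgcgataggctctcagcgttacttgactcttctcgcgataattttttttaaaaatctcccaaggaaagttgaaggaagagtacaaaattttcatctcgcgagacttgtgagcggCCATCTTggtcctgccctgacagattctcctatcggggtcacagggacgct
SDHB: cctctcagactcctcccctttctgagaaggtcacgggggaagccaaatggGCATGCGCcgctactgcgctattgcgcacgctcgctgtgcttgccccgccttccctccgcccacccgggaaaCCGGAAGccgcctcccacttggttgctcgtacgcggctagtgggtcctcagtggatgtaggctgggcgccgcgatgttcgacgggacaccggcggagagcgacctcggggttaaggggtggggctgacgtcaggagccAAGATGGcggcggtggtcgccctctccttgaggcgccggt
ATP5G1: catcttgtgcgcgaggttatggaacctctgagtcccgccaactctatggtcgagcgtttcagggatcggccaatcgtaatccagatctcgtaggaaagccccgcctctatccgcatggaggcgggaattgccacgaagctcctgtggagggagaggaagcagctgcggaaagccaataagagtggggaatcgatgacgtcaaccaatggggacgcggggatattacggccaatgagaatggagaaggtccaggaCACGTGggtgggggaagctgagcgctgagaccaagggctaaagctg
COX4I1: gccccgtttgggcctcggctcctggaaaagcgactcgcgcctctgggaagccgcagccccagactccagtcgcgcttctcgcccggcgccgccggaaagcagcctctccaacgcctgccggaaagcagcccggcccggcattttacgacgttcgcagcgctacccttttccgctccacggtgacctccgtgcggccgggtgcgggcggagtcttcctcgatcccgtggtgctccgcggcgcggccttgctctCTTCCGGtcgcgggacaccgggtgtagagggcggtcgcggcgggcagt

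The E-box, the letters that MYC-family dimers bind best, stood in 7 of the 63 matched promoters (11.1%), against 7.4% of all 27305 promoters in the table and 9.8% of the 10036 that belong to tested genes. The NRF1 core was present in 13 members (20.6%), against 3.3% and 5.3%. The YY1 core was in 16 (25.4%), against 6.1% and 7.4%, and the ETS letters were in 20 (31.7%), against 10.7% and 17.9%. The GC box GGGCGGG was in 25.4% of the members and 52.2% of tested promoters, and CCAAT in 31.7% and 37.1%. ATP5F1 holds its E-box 223 bases before the start and ATP5G1 holds one 5 bases into the transcript, while SDHB and COX4I1 have none in this window. COX4I1 starts 151 bases from COX4NB on the other strand, a gene that matches the symbol rule but codes for a subunit of the endoplasmic reticulum membrane complex. A match is a description of letters and does not show that a factor binds there.

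Transcript length moved with the state difference and is given beside it. The members are short, with a median principal transcript of 0.95 kb (quartiles 0.67 and 1.95) against 2.96 kb (1.87 and 4.64) for all tested genes. Other genes under 1 kb (1079) had median log2 state differences of 0.13, 0.44, 0.45, 0.60 and 0.79 over the 5 times, while those over 4 kb (4669) had -0.07, -0.11, -0.09, -0.16 and -0.29. The 42 members under 1 kb had 0.05, 0.67, 0.53, 0.64 and 0.78. The 18 members of 1 to 2 kb had 0.38, 0.58, 0.46, 0.83 and 0.97, where the 2844 other genes of that length had -0.05, 0.12, 0.12, 0.15 and 0.24. The 7 members over 4 kb had 0.39, 0.48, 0.44, 0.63 and 0.75. Lengths are those of GENCODE transcripts on GRCh38, which is not the build of the counts. For SDHC (13.566 kb) and ATP5S (10.212 kb), both among these 7, they are implausibly long. Values of SDHC with the length trend removed, given further below, rest on that length. The 11 members of 2 to 4 kb had 0.43, 0.87, 0.84, 0.76 and 1.04, where the 5446 other genes of that length had -0.06, 0.00, 0.02, 0.01 and 0.01. With the length trend of each library removed, 24 members were higher and 6 lower at 0 h, 27 and 1 at 72 h, 23 and 0 on day 3, and 30 and 0 on both days 8 and 14. The members' shares higher were then 30.8%, 34.6%, 29.5%, 38.5% and 38.5%, against 20%, 16.2%, 16.9%, 23.3% and 21.0% of the 14116 genes with a length, and their median differences were 0.30, 0.36, 0.24, 0.30 and 0.37. NDUFS1 and ATP5A1 kept their calls after drug with larger differences, on day 8 of 0.98 from 0.78 and of 1.16 from 1.09. NDUFV1, NDUFV2, NDUFB9, SDHB and ATP5B kept their calls after drug, with smaller differences. That of NDUFB9 went from 0.96 to 0.42 on day 8 and from 1.07 to 0.42 on day 14, and that of NDUFV2 from 0.96 to 0.53 and from 1.21 to 0.67. In contrast, COX4I1 lost its calls on days 3, 8 and 14 (adjusted p of 0.15 to 0.295) and ATP5J each of its calls after drug. NDUFS8 lost its 72 h call toward MYCN-high (0.44, adjusted p = 0.171) and kept its lower call at 0 h (-1.22, adjusted p = 0.00111). Whether length itself sets the difference was not tested.

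**Figure D4:**
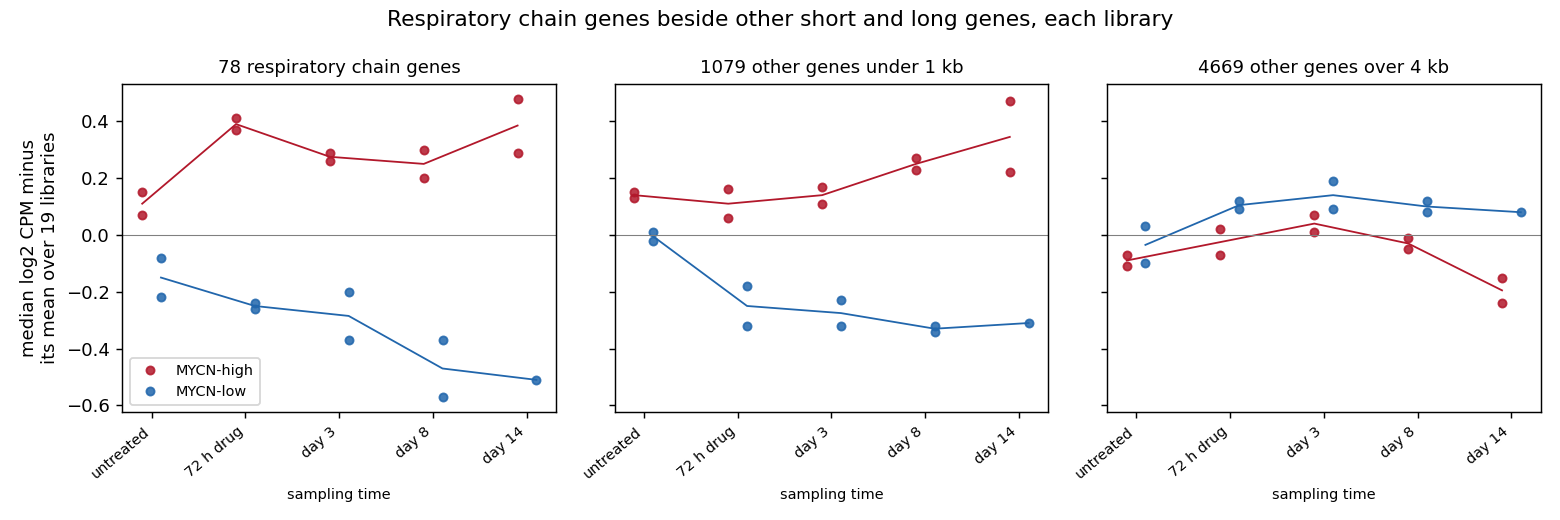
Median over the 78 members, over 1079 other genes under 1 kb and over 4669 other genes over 4 kb of the log2 CPM minus each gene's mean over the 19 libraries, in every library (1 point per library, lines through the group means) by time and state. After drug the members lie at 0.20 to 0.48 in MYCN-high and -0.57 to -0.20 in MYCN-low libraries, the other short genes at 0.06 to 0.47 and -0.34 to -0.18, and the long genes at -0.24 to 0.07 and 0.08 to 0.19.

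Within a state, each time was compared with that state's untreated cells, so the 4 comparisons share the same 2 libraries and are given side by side. In MYCN-high cells 21 members (26.9%) rose and 2 (2.56%) fell at 72 h, against 18.3% and 17.9% of all genes. On day 3, 9 (11.5%) rose and 2 (2.56%) fell, against 15.1% and 15.7%. On day 8, 2 (2.56%) rose and none fell, against 4.49% and 4.09%. On day 14 edgeR called 0 members and 0% of all genes in either direction. There 16 members had an unadjusted p under 0.05, DESeq2's Wald test called 2 members, and edgeR without the filter on low counts called 4. The shares of all genes under those settings are not given here, so these counts are not read as a result about the members. The median log2 change of the members was 0.28, 0.23, 0.15 and 0.27. The counts that follow, each without 1 library, are given without the shares of all genes in the same fits. The 72 h counts were 9 and 1 without untreated library B, 12 and 1 without untreated C and 7 and 0 without treated C, and the day 3 counts fell to 3 and 0, 6 and 1, 2 and 1, and 4 and 0 without untreated B, untreated C, day 3 B and day 3 C. On day 8 the 2 rises fell to 1 without day 8 B and to 0 without each of the other 3 libraries.

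The rises at 72 h in MYCN-high cells came mainly from complexes I and IV, with 13 of 37 and 5 of 12 members, and complex V had none of 16. SDHC, at 3.12 and 4.77 CPM untreated and 10.4 and 8.90 at 72 h, rose most among the members with a call that held without each library (log2 1.29 ± 0.26, adjusted p = 0.00138). It also rose on day 3 (1.22 ± 0.27, adjusted p = 0.0029), which was lost without day 3 library B (adjusted p = 0.0578). COX5B, a zinc-binding subunit of complex IV, went from 46.9 and 54.3 to 86.9 and 83.2 CPM (0.75 ± 0.16, adjusted p = 0.00185) and was still called on day 8 at 72.2 and 85.6 CPM (0.64 ± 0.16, adjusted p = 0.0228). That day 8 call was lost without untreated B, untreated C or day 8 C (adjusted p up to 0.205). NDUFB9 rose by 0.64 ± 0.14 at 72 h and 0.58 ± 0.14 on day 3, both without each library. The 2 that fell at 72 h were NDUFA6, a matrix-arm accessory subunit, from 48.7 and 55.1 to 31.7 and 24.0 CPM (-0.90 ± 0.23, adjusted p = 0.00618), lost without treated C (0.0688), and NDUFA9 (-0.60 ± 0.21, adjusted p = 0.0384), lost without untreated B, untreated C or treated C (up to 0.228). The short structured RNAs RMRP, RPPH1 and SCARNA2, which are not messenger RNAs, rose in the same comparison (3 of 3, median log2 1.07), and their part in it was not tested.

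In MYCN-low cells more members fell than rose at every time, a balance that did not hold with the length trend removed at 72 h and day 3. At 72 h 3 members (3.85%) rose and 8 (10.3%) fell, against 10.2% and 12.1% of all genes. On day 3, 4 (5.13%) rose and 9 (11.5%) fell, against 10.5% and 12.7%. On day 8, none rose and 25 (32.1%) fell, against 10.2% and 14.6%. On day 14, where the only library was given the spread of the other groups, 1 (1.28%) rose and 14 (17.9%) fell, against 7.63% and 10.7%. The median log2 change was -0.14, -0.18, -0.32 and -0.36, where all genes had 0.01, 0.02, -0.02 and -0.05. The share of falls was thus above that of all genes on days 8 and 14 and below it at 72 h and day 3. The 25 falls were 10 in complex I, 2 in II, 1 in III, 4 in IV and 8 in V.

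Single libraries moved these counts. The counts without 1 library are given without the shares of all genes in those fits. Untreated libraries B and C stood apart for several members. Without B the rises and falls were 0 and 3 at 72 h, 0 and 5 on day 3, and 0 and 14 on day 8. Without untreated C they were 11 and 19 at 72 h, 12 and 23 on day 3, 8 and 27 on day 8, and 6 and 20 on day 14. The 72 h counts were 0 and 3 without treated B and 2 and 3 without treated C. Those on day 3 were 2 and 0 without B and 0 and 3 without C of that day, and those on day 8 were 0 and 3 and 0 and 8. With the length trend removed, 10 rose and 3 fell at 72 h, 9 and 1 on day 3, 4 and 7 on day 8, and 1 and 4 on day 14. The falls on days 8 and 14 were then 8.97% and 5.13% of the members, against 12.1% and 9.07% of all genes, and those at 72 h and day 3 were also below the share of all genes (3.85% and 1.28% against 10.3% and 11.0%). The members' medians were 0.08, 0.05, -0.03 and -0.09, against 0.11, 0.11, 0.07 and 0.03. Other genes under 1 kb had medians of -0.25, -0.27, -0.35 and -0.38, and members under 1 kb had -0.23, -0.24, -0.36 and -0.41.

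The core protein UQCRC1 fell in MYCN-low cells from day 3 on and stood at 152 and 150 CPM untreated, 129 and 99.9 at 72 h, 94.2 and 107 on day 3, 85.4 and 86.5 on day 8, and 94.7 on day 14. The day 8 change of -0.81 ± 0.15 (adjusted p = 9.17e-04) and the day 14 change of -0.67 ± 0.18 (adjusted p = 0.0188) were called without each library, while that on day 3 (-0.59 ± 0.15, adjusted p = 0.0086) was lost without day 3 library B (0.082). With the length trend removed the day 8 call was kept (-0.60, adjusted p = 0.0045), and those on day 3 (-0.37, 0.0538) and day 14 (-0.46, 0.0651) were lost. ATP5G1 fell by 1.33 on day 8 (SE 0.30, adjusted p = 0.00517), lost without untreated B or day 8 B (adjusted p up to 0.0897), and by 1.66 on day 14 (SE 0.40, adjusted p = 0.00975), called without either untreated library. NDUFS8 fell by 1.17 on day 8 (SE 0.25, adjusted p = 0.00312) and by 1.32 on day 14, both called without each library. SDHC again moved the other way, from 3.90 and 5.19 CPM untreated to 8.55 and 8.60 on day 3 (0.91 ± 0.26, adjusted p = 0.0209) and 9.27 on day 14 (1.02 ± 0.31, adjusted p = 0.0325). The first was lost without untreated B or either day 3 library, and the second without untreated B (adjusted p up to 0.116), and both were lost with the length trend removed (adjusted p of 0.0931 and 0.087). Of 46 named calls in MYCN-low cells, 18 were kept with the length trend removed. COX7C rose at 72 h from 72.2 and 127 to 236 and 166 CPM (1.01 ± 0.27, adjusted p = 0.0145), lost without untreated B or treated B (adjusted p up to 0.151).

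The test of the difference between the 2 responses (change in MYCN-high minus change in MYCN-low cells, each against its own untreated cells) called 14 members (17.9%) at 72 h, 6 (7.69%) on day 3, 10 (12.8%) on day 8 and 12 (15.4%) on day 14, all in the direction of MYCN-high. Among all genes 6.63%, 5.10%, 4.41% and 4.87% were called in that direction and 4.06%, 2.48%, 1.94% and 2.53% in the other. The median of the members was 0.38, 0.31, 0.41 and 0.65, against 0.03 to 0.05 for all genes. NDUFS8 at 72 h (1.93 ± 0.35, adjusted p = 0.00545), ATP5D at 72 h (2.10 ± 0.44, adjusted p = 0.0106), UQCRC1 on day 8 (1.11 ± 0.20, adjusted p = 0.00729) and ATP5J2, subunit f of the membrane part of complex V, on day 14 (1.80 ± 0.35, adjusted p = 0.00854) were called without each library. ATP5J2 stood at 65.3 and 76.9 CPM on day 14 in MYCN-high cells, from 38.5 and 34.8 untreated, and at 32.3 in MYCN-low cells, from 70.5 and 45.6. These differences share the untreated libraries across times. The structured RNAs RMRP, RPPH1 and SCARNA2 had median response differences of 1.52, 1.47, 1.23 and 1.28, and their summed level in the untreated MYCN-low libraries was 5886 CPM in B and 2508 in C. Their part in these calls was not tested.

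Here too single libraries and length mattered. The counts without 1 library are again given without the shares of all genes in those fits. At 72 h the counts were 4 without untreated MYCN-high B or C, 8 without untreated MYCN-low B, 4 without treated MYCN-high C, 22 without treated MYCN-high B, and 3 and 7 without treated MYCN-low B and C. Without untreated MYCN-low C, 26 members were called toward MYCN-high and 7 the other way at 72 h, 25 and 5 on day 3, 25 and 2 on day 8, and 26 and 0 on day 14. On day 3 the 6 calls fell to 0 without untreated MYCN-high B, day 3 MYCN-high B or C, or day 3 MYCN-low B, to 1 without untreated MYCN-high C, 2 without untreated MYCN-low B and 3 without day 3 MYCN-low C. On day 8 the 10 fell to 1 without untreated MYCN-high B or C, day 8 MYCN-high C or MYCN-low B, 4 without day 8 MYCN-high B and 3 without MYCN-low C. On day 14 the 12 fell to 1 without untreated MYCN-high B or day 14 MYCN-high C, 4 without untreated MYCN-high C and 7 without day 14 MYCN-high B. With the length trend removed, 7, 1, 2 and 0 members were called (8.97%, 1.28%, 2.56% and 0%), against 6.19%, 4.41%, 3.62% and 3.67% of all genes toward MYCN-high. The day 14 call of ATP5J2 was among those lost (0.96, adjusted p = 0.0716).

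Other genes of mitochondrial energy metabolism, on lists drawn up for these comparisons, are set beside the members. Among all tested genes 15.5% to 23.4% were higher in MYCN-high cells and 14.4% to 20.5% lower over the 5 times. Of 25 genes of protein import, 20, 19, 16, 21 and 20 were higher in MYCN-high cells over the 5 times and 1 was lower, at 0 h. TOMM22, the central receptor of the outer membrane translocase, was higher by 0.83 ± 0.17 untreated and 2.01 ± 0.23 on day 14 (adjusted p = 1.50e-05). Of 13 assembly factors of complex I, 10, 6, 7, 9 and 9 were higher, among them NDUFAF4, by 1.49 ± 0.21 untreated. One of these complex I factors was lower, at 0 h. Over the times up to day 8, 9, 5, 7 and 11 of 22 assembly factors of complex IV were higher and 1, 1, 0 and 0 lower. For complex II 1 of 4 was higher at each of these times, for complex III 2, 2, 4 and 4 of 6, and for complex V 1, 0, 0 and 2 of 4. The electron carrier gene CYCS, for cytochrome c, was higher by 1.57 ± 0.29 untreated, and CYC1, the heme subunit of complex III, by 1.20 ± 0.19 at 72 h (adjusted p = 2.76e-04). Of 17 regulators of mitochondrial biogenesis, 7, 9, 11, 13 and 11 were higher and none lower. TFAM, which packages mitochondrial DNA and takes part in its transcription, was higher by 1.81 ± 0.21 untreated and 0.58 ± 0.21 at 72 h. Of 25 genes of pyruvate dehydrogenase and the citric acid cycle, 10, 11, 13, 14 and 12 were higher and 2, 1, 1, 2 and 3 lower.

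In their time courses these lists did not all move like the subunits. In MYCN-high cells at 72 h, 2 of 25 import genes rose and 6 fell, and 0 and 4 of 13 complex I assembly factors. There 21 of 78 subunit genes had risen and 2 had fallen, against 18.3% and 17.9% of all tested genes. Of 22 complex IV assembly factors 4 rose and 3 fell. Of 25 genes of pyruvate dehydrogenase and the citric acid cycle 8 rose and 5 fell. Whether these shares differ was not tested. TFAM fell by 1.38 there (SE 0.21, adjusted p = 1.24e-04), and NRF1, a transcription factor known for respiratory genes, fell by 1.50 (SE 0.25, adjusted p = 2.90e-04). PPARGC1A, a coactivator of such factors, rose by 2.13 ± 0.35 (adjusted p = 2.22e-04), and the nuclear receptor gene ESRRA by 1.05 ± 0.17 (adjusted p = 2.43e-04). In MYCN-low cells NRF1 fell by 1.32 (SE 0.26, adjusted p = 0.0017) and PPARGC1A rose by 1.27 ± 0.36 (adjusted p = 0.0194) at 72 h. On day 8 in MYCN-low cells 8 of 25 import genes fell and 1 rose. Of the 25 genes of pyruvate dehydrogenase and the citric acid cycle 7 fell and 2 rose. Among all tested genes 14.6% fell and 10.2% rose there. FH, for fumarase, fell by 1.47 (SE 0.17, adjusted p = 3.51e-05).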

How the data were processed

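RNA was taken from the cells, mixed with ERCC spike-ins and depleted of ribosomal RNA with the RiboGold kit before ScriptSeq library preparation, per the labels' protocols, although the labels give the molecule as polyA RNA. The authors deposited a table of raw counts per gene and library, and the submitters' processing notes name STAR 2.4.0h1, HTSeq and hg19. The annotation and the strand setting are not given in the sources used here. Reads of a gene and of a near-identical copy (UQCRH and UQCRHL) are therefore uncertain. COX4I1 and COX4NB run apart from RefSeq starts 151 bases from each other, and where the annotation of the counts bounds them is not known.

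Spike-ins were left out of the gene totals. Genes that passed edgeR's filterByExpr (14793 of 23367) were scaled with TMM and fitted in 1 model with a coefficient for each of 10 groups (19 libraries, 9 residual degrees of freedom, biological coefficient of variation 0.204) by edgeR 4.0.16 in R 4.3.3. Adjusted p-values are Benjamini-Hochberg over all tested genes, with a threshold of 0.05, and SE is the log2 change divided by the square root of F. The scripts were tested on simulated data. Alternatives were DESeq2 1.42.0, other scalings, no filter, a replicate block, a trend on transcript length and leaving out each library. Named members are the catalytic and core subunits, the isoform sets, up to 6 called members per direction with the smallest p in each comparison, and the extremes of each complex. From each related list, up to 4 called genes with the smallest p were eligible, apart from ESRRA, NDUFAF4, TOMM22, FH and the carriers, which were chosen for their roles after their values were seen. The members and lists were chosen with earlier results of these data known. ATP5S, ATP5SL, COX4NB and COX7A2L match by symbol but are not known as fixed subunits of these complexes, and stayed counted. The values of 1 member are not reported here, though it is included in counts and sums.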

Additional observations from a re-analysis of the deposited data

Results flagged for a closer look

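The 42 values below, from 24 members, are differences between the 2 responses to drug (log2 change in MYCN-high minus log2 change in MYCN-low cells, each against its own untreated cells) with an adjusted p under 0.05 in edgeR's quasi-likelihood test. All are positive, all use the untreated libraries, and MYCN-low day 14 rests on 1 library. At 72 h they were 2.10 for ATP5D, 1.93 for NDUFS8, 1.62 for NDUFA3, 1.49 for COX5A, 1.45 for COX6A1, 1.44 for NDUFA2, 1.34 for UQCR11, 1.32 for NDUFA11, 1.11 for COX6B1, 1.10 for NDUFB7, 1.00 for ATP5J2, 0.98 for COX5B, 0.83 for NDUFB9 and 0.72 for COX4I1. On day 3 they were 1.35 for COX6A1, 1.26 for NDUFS8, 1.20 for ATP5J2, 0.93 for NDUFV1, 0.87 for COX5B and 0.81 for NDUFB9. On day 8 they were 1.56 for COX8A, 1.39 for COX6A1, 1.35 for ATP5G2, 1.32 for ATP5J2, 1.11 for NDUFS7, 1.11 for UQCRC1, 1.03 for NDUFB11, 0.86 for COX5B, 0.82 for NDUFV1 and 0.80 for NDUFB10. On day 14 they were 1.93 for ATP5G1, 1.80 for ATP5J2, 1.54 for NDUFA11, 1.48 for ATP5G2, 1.41 for NDUFS8, 1.27 for NDUFS7, 1.18 for NDUFB11, 1.12 for COX5B, 1.06 for NDUFB8, 0.99 for SDHB, 0.98 for UQCRC1 and 0.81 for COX4I1. Of these members ATP5J2 and COX5B were called at all 4 times. With the length trend removed, COX5B lost its call at each of these times (differences of 0.71, 0.55, 0.37 and 0.52). ATP5J2 then lost its calls on days 3, 8 and 14 (0.59, 0.51 and 0.96). In untreated MYCN-low cells library B had 70.5 CPM of ATP5J2 and C 45.6, and for COX5B the libraries had 62.7 and 62.1 CPM.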

How the results depend on the processing

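Leaving out 1 library at a time gave 4 to 42, 24 to 37, 19 to 30, 25 to 42 and 36 to 47 members called between the states (0 h, 72 h, days 3, 8 and 14), 7 to 23, 3 to 7, 0 to 1 and 0 to 1 in MYCN-high cells after drug, 3 to 30, 2 to 35, 3 to 35 and 13 to 26 in MYCN-low cells, and 3 to 33, 0 to 30, 1 to 27 and 1 to 26 for the response difference. Of the named calls, 68 of 113 between states, 7 of 24 in MYCN-high cells, 8 of 46 in MYCN-low cells and 4 of 30 response differences were kept without each library. With the length trend removed 91, 24, 18 and 8 of them were kept. DESeq2's Wald test called 4 (MYCN-high day 8), 2 (MYCN-high day 14), 17 (MYCN-low 72 h), 11 and 22 (response, days 3 and 14), no filter called 4 (MYCN-high day 14), 12 and 20 (response, days 3 and 14), and DESeq2 size factors called 4 (response, day 8). With the length trend removed the states differed in 23, 30 and 30 members on days 3, 8 and 14, MYCN-low cells in 11 and 5 on days 8 and 14, and the responses in 7, 1, 2 and 0. With union-of-exons lengths, an alternative chosen after seeing the data, there were 33 (state, day 8), 17 (MYCN-high day 3), 13 and 5 (MYCN-low, days 8 and 14) and 8, 1, 2 and 3 (responses), and COX6A1 turned to -0.11 on day 8. The cause of these changes was not tested. A replicate block on the letters B and C called 30, 42, 37, 53 and 48 members between states, 25, 12, 2 and 0 in MYCN-high cells, 13, 14, 28 and 11 in MYCN-low cells and 16, 7, 10 and 10 responses. The deviations of same-lettered libraries correlated at -0.21 to 0.32 (median 0.11), so the letters were not taken to pair the libraries. This does not settle whether the letters are related for the members. Their summed CPM in MYCN-low cells was lower in B than in C at each time with both. In MYCN-high cells it was lower in B at 0 h and on days 8 and 14, and higher at 72 h and on day 3. Spike-in scaling moves all genes of a library by the same factor, so it could barely change the gap between members and all genes. That gap in the medians was 0.30 to 0.84 between states and is no check on the result. The scaling put the median change of all genes between -1.44 and 2.51 and called 0 members in every comparison. Under it the sign turned for COX6A1, ATP5J2 and NDUFA2 untreated (0.20, 0.21 and 0.10), for COX4I1 and COX7A2 between states on day 14 (-0.04 and -0.18), for NDUFA6 and NDUFA9 in MYCN-high cells at 72 h (1.68 and 1.90) and COX4NB and ATP5SL on day 3 (0.87 and 0.71), and for COX4NB and ATP5I in MYCN-low cells at 72 h (0.02 and 0.06). On day 8 in MYCN-low cells it turned for SDHB 0.50, SDHD 0.48, NDUFS7 0.18, NDUFS8 0.10, NDUFV1 0.32, UQCRC1 0.23, COX4I1 0.56, COX6A1 0.42, ATP5G2 0.51, ATP5G3 0.51, ATP5B 0.41, ATP5J2 0.23 and NDUFA11 0.14, and in the day 14 response for SDHB -0.47, NDUFS7 -0.32, NDUFS8 -0.39, UQCRC1 -0.59, COX4I1 -0.77, ATP5G2 -0.27 and COX5B -0.42. Without untreated MYCN-low C, ATP5J on day 8 in MYCN-low cells went from -0.02 to 0.47 (adjusted p = 0.0464), and without untreated MYCN-low B to -0.37. With 2 libraries a group, and 1 on day 14 in MYCN-low cells, small differences were not detectable.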
